A study of Mus musculus with 8 samples.

Results

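The interferon-inducible chemokines Cxcl9, Cxcl10 and Cxcl11 and their shared receptor Cxcr3 were followed in mouse forepaw skin that had received PACAP (pituitary adenylate cyclase-activating polypeptide) into the dermis 30 or 60 min earlier. These 4 genes, of 29608 gene names on the array, were chosen by their measured ratios of PACAP over vehicle in this series, chiefly those of Cxcl9, so these ratios are given as descriptions with no test. All probes that carry 1 of the 4 names were taken, which gave 7 probes of 39429, with 2 probes each for Cxcl9, Cxcl10 and Cxcl11 and 1 for Cxcr3. Each was read on 1 spot per array.

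CXCL9, CXCL10 and CXCL11 are small secreted proteins that interferon gamma induces in many cell types, among them keratinocytes, endothelial cells and macrophages. Interferon gamma acts on its targets mainly through GAS elements in their promoters, and type I interferons through ISRE elements. NF-kappa B adds to the induction of CXCL10 in particular. All 3 chemokines bind CXCR3, a G protein-coupled receptor of activated T cells and natural killer cells, and draw these cells into inflamed skin. In the C57BL/6 mouse, Cxcl11 is a transcribed pseudogene in the RefSeq annotation.

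The mice were C57BL/6J wild type (WT) mice and Adcyap1r1 -/- mice (PAC1R KO), 9 to 10 weeks old, 6 of each genotype according to the series' design text. Adcyap1r1 encodes PAC1R, the PACAP-preferring receptor. Under anaesthesia, each footpad injection held 5 µL of saline with 0.1% BSA, with PACAP at 1e-07 mol/L or without it (vehicle). The 8 RNA samples (WT or PAC1R KO, vehicle or PACAP, 30 or 60 min) were hybridised as 4 pairs on 8 Agilent 2-colour arrays, and each pair lay on 2 arrays with the dyes exchanged. Such a pair of arrays holds the same 2 RNA samples and was counted as 1 replicate, so no ratio below has a replicate between animals. How many mice entered an RNA sample is not given in the sources used here. The WT arrays were on 1 slide and the KO arrays on another, and a difference of genotype cannot be told apart from one of slide.

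The arrays held between 78.6% and 94.5% of spots well above background in the Cy5 channel and between 54.0% and 65.3% in the Cy3 channel. Dye effects were large. After both were turned to PACAP over vehicle, the 2 arrays of a comparison correlated at r = -0.27 (WT, 30 min), -0.08 (KO, 30 min), -0.33 (WT, 60 min) and -0.44 (KO, 60 min) across 30350 probes, which are not independent replicates. The probe of Adcyap1r1 had log2 levels of 8.26 to 8.76 in the 4 WT samples and 7.91 to 8.56 in the 4 samples labelled KO. These ranges overlap. Whether the probe lies in the deleted part of the gene is not given in the sources used here, so it does not check the labels, and the genotypes are those of the labels. The skin keratins Krt5 and Krt14 and the sweat gland water channel Aqp5 were well above background on both arrays of all 8 samples.

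A level below is the log2 of a normalized intensity, the mean of the Cy5 and Cy3 readings of an RNA sample, and can be compared across samples for 1 probe but not between probes. The lowest level at which a probe was called well above background, taken on each array and averaged over the 2 arrays of a sample, lay between 5.89 and 6.16, so a probe above background on 1 array can have a mean level under it. A ratio is Feature Extraction's background-subtracted ratio, averaged on the log2 scale over both arrays. A probe was called when this mean reached at least 2-fold, or at most 0.5-fold, and both arrays had that direction with a Feature Extraction p below 0.01, a p that speaks of 1 array and not of animals. By this rule 3 of the 7 probes were called higher after PACAP in WT mice at 60 min. At 30 min 1 was called in WT mice, and none was called in PAC1R KO mice at either time. None of the 7 was called lower in any comparison. Over all probes, the share called higher was 0.583% for WT at 60 min, 0.254% for WT at 30 min, 0.601% for KO at 30 min and 0.142% for KO at 60 min. The shares called lower were 0.109%, 0.0964%, 0.107% and 0.15% in the same order.

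**Figure D1:**
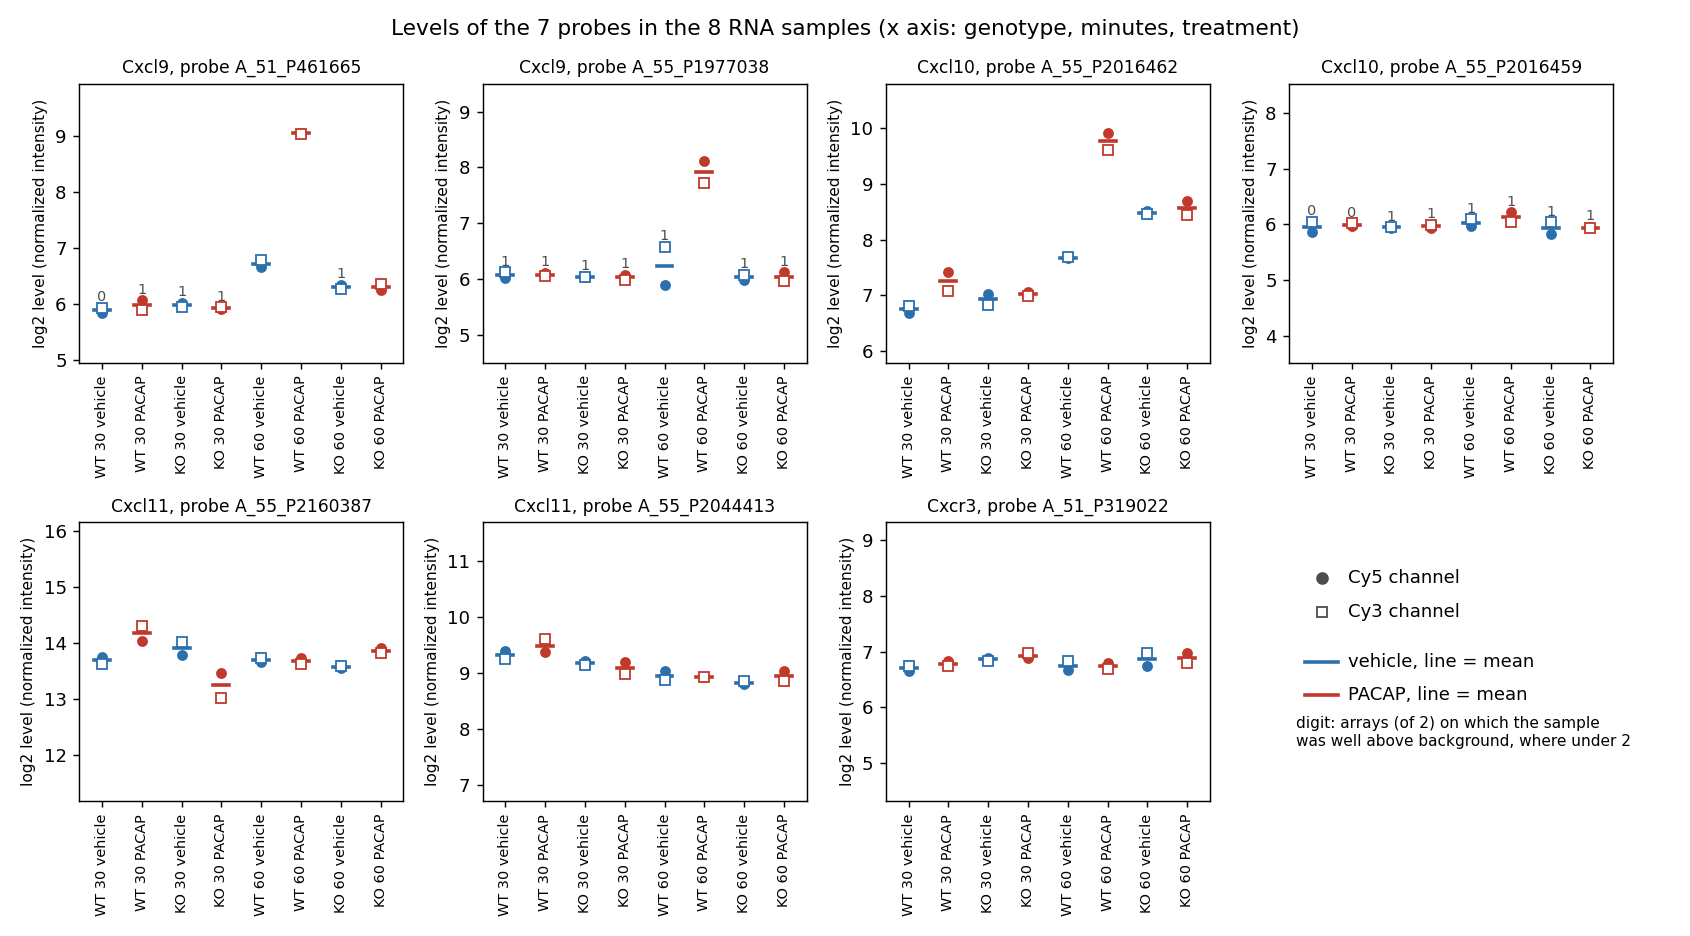
Levels (log2 normalized intensity) of each probe in the 8 RNA samples, with 1 circle for the Cy5 and 1 square for the Cy3 reading, a line for their mean, and a digit where fewer than 2 arrays read the sample as well above background. Both Cxcl9 probes and the Cxcl10 probe A_55_P2016462 were highest in WT skin 60 min after PACAP (9.05, 7.91 and 9.76), and the Cxcr3 probe stayed between 6.70 and 6.92.

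Cxcl9, the ligand that depends most on interferon gamma, was read by a pair of probes 605 bases apart on the minus strand of chromosome 5 (mm9). The probe nearer the 3′ end (A_51_P461665, NM_008599) lies at chr5:92752191-92752250 and the other (A_55_P1977038, NM_008599) at chr5:92752796-92752855. The first 30 bases of each are shown because these probes carry the largest ratios, and neither shares a run of 16 bases with a probe of another gene name on either strand.
Cxcl9 probe A_51_P461665: atgggatttcattattaacttgatcccatc
Cxcl9 probe A_55_P1977038: aagtcgtcgtcgttcaaggaagactacata

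At A_51_P461665 the level was 5.88 in vehicle-treated and 5.97 in PACAP-treated WT skin at 30 min, 5.98 and 5.92 in KO skin at 30 min, 6.72 and 9.05 in WT skin at 60 min, and 6.31 and 6.30 in KO skin at 60 min. WT skin 60 min after PACAP thus stood above the other 7 samples, of which the next was its own vehicle sample. At A_55_P1977038 that sample had a level of 7.91, and the other 7 lay between 6.03 and 6.24. The 30 min samples were at the edge of detection. At A_51_P461665 the WT vehicle sample was well above background on 0 of 2 arrays at 30 min and the other 3 samples of that time on 1, so no fold is given for WT at 30 min. In the WT vehicle sample at 60 min, A_51_P461665 was well above background on both arrays and A_55_P1977038 on 1.

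The ratio of A_51_P461665 in WT mice at 60 min was 13.4-fold, with 17.4-fold on the array with PACAP in Cy5 and 10.3-fold on the array with PACAP in Cy3. A_55_P1977038 gave 24.8-fold, from 35.8-fold and 17.1-fold. These ratios are what the gene was selected on. Both depend on how background is removed: after normexp background correction and loess they were 5.05-fold and 3.19-fold, still up-regulated. In PAC1R KO mice at 60 min A_51_P461665 was 1.08-fold on one array and 0.911-fold on the other, and A_55_P1977038 was 2.11-fold and 0.795-fold, so the arrays disagreed in direction at both probes. These are ratios near background, since A_51_P461665 was well above it on 1 of 2 arrays in the KO vehicle sample and A_55_P1977038 on 1 of 2 in both KO samples of that time. The KO ratios at 30 min were 0.990-fold and 1.15-fold on the mean, again with no direction shared by both arrays.

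Cxcl10 encodes a chemokine that type I interferons and NF-kappa B induce as well as interferon gamma. Its probes were A_55_P2016462 (NM_021274) at chr5:92775781-92775840 and A_55_P2016459 at chr5:92776616-92776675, both on the minus strand of mm9. The latter is listed with the transcript ENSMUST00000118006.2 and lies 835 bases further to the 5′ side. A stretch of 30 bases of each is given since they disagree, with capitals for the 16 bases that A_55_P2016459 shares with a probe of 1 other gene name.
Cxcl10 probe A_55_P2016462: gctttgcattgtatatggaagaacttgtgt
Cxcl10 probe A_55_P2016459: atacctgtcacgggTAAAGCTGCCAAATGC

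A_55_P2016462 was well above background on both arrays in all 8 samples. At 30 min its levels were 6.75 (vehicle) and 7.25 (PACAP) in WT skin and 6.93 and 7.03 in KO skin. At 60 min they were 7.68 and 9.76 in WT skin and 8.48 and 8.57 in KO skin. The 4 samples taken at 60 min all lay above the 4 taken at 30 min, vehicle included, and WT skin after PACAP was the highest. PACAP over vehicle in WT mice was 2.18-fold at 30 min, from 2.60-fold and 1.83-fold on the arrays, and 5.75-fold at 60 min, from 6.97-fold and 4.75-fold. The KO ratios were 1.21-fold at 30 min, from 1.44-fold and 1.02-fold, and 1.07-fold at 60 min, with one array at 1.19-fold and the other at 0.966-fold. With normexp and loess the WT ratios were 1.41-fold at 30 min, below the 2-fold threshold, and 4.25-fold at 60 min. A_55_P2016459 had levels of 5.93 to 6.13 in all 8 samples and was well above background on both arrays in none of them. Its ratio in WT mice at 60 min was 2.13-fold on one array and 0.992-fold on the other.

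**Figure D2:**
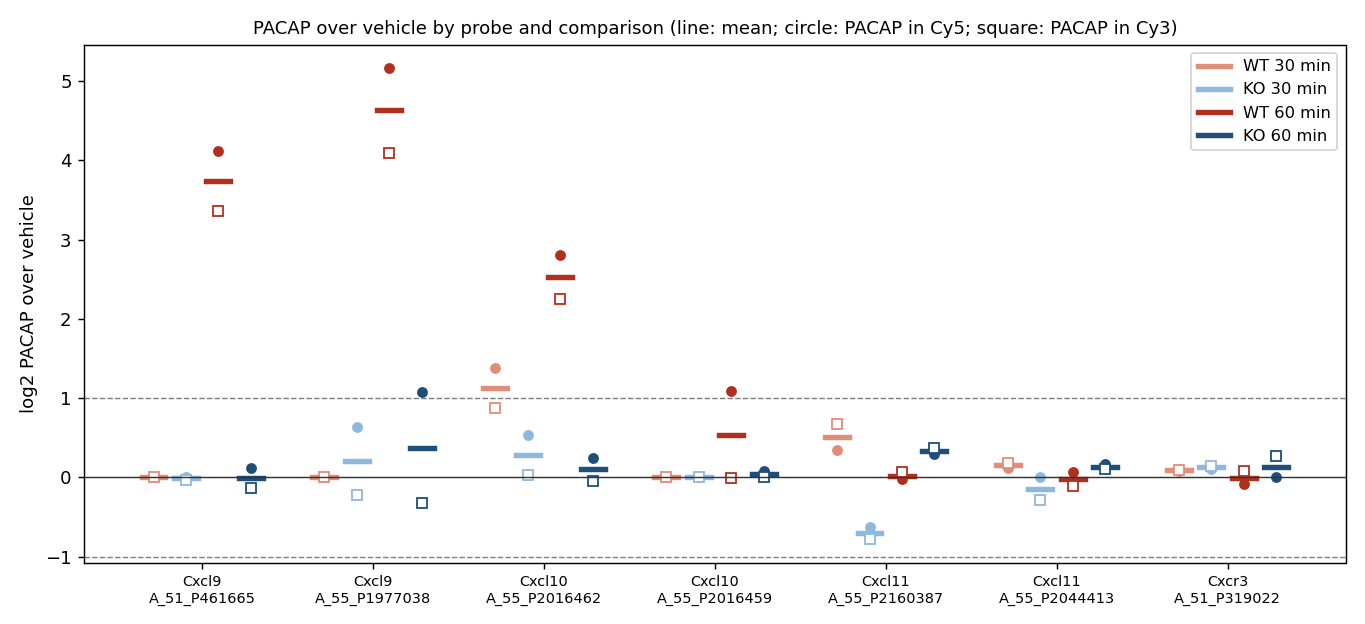
PACAP over vehicle (log2) of the 7 probes in the 4 comparisons, with a line for the mean, a circle for the array with PACAP in Cy5 and a square for the array with PACAP in Cy3. The dashed lines mark 2-fold and 0.5-fold. In WT mice at 60 min both Cxcl9 probes and Cxcl10 A_55_P2016462 had both arrays above 2-fold (means of 3.74, 4.63 and 2.52), and no KO mean passed 2-fold in either direction.

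The vehicle samples show the chemokines without PACAP in both genotypes and at both times. They are the denominators of the ratios on which the genes were chosen and were read on the same arrays, so the values of the chemokines are given as descriptions. The vehicle level of Cxcl10 A_55_P2016462 was higher in KO than in WT skin by 0.18 at 30 min and 0.81 at 60 min on the log2 scale. It was higher at 60 than at 30 min by 0.92 in WT and 1.55 in KO skin, a mean of 1.24, which was 2.12 with Feature Extraction's signals. For Cxcl9 no such difference is read, since its 30 min vehicle samples were well above background on no more than 1 of 2 arrays. Across the whole array, limma called 0 of 37540 probes (0%) for KO against WT in vehicle skin (2 samples each), and 2428 had an unadjusted p below 0.05. For 60 against 30 min, a comparison added after the levels were seen, it also called 0 of 37540 (0%), with 6291 at an unadjusted p below 0.05. With 1 vehicle sample per genotype and time, the spread between animals is unknown.

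Cxcl11 was read by a pair of probes that lie 73 bases apart, A_55_P2160387 at chr5:92788567-92788626 and A_55_P2044413 at chr5:92788640-92788699, both on the minus strand (mm9) and listed with NM_019494. The sequences are shown because parts of them are shared with other probes. The capitals mark bases within a run of 16 that also occurs, on either strand, in a probe of another gene name, which was the case for 19 other gene names at A_55_P2160387 and 2 at A_55_P2044413. Of all probes, 19.7% shared such a run with at least 1 other gene name and 0.796% with 19 or more.
Cxcl11 probe A_55_P2160387: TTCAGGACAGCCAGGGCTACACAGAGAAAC
Cxcl11 probe A_55_P2044413: CAGCACTTGAAAGGCAGAGGCAGGAGGATC

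Neither Cxcl11 probe followed the other ligands. At 60 min in WT mice, where Cxcl9 and Cxcl10 had their highest ratios, A_55_P2160387 was 1.02-fold and A_55_P2044413 0.983-fold. At A_55_P2160387 the level was 13.69 (vehicle) and 14.17 (PACAP) in WT skin at 30 min, 13.91 and 13.24 in KO skin at 30 min, 13.69 and 13.68 in WT skin at 60 min, and 13.57 and 13.86 in KO skin at 60 min. At 30 min the ratio came to 1.42-fold for WT and 0.614-fold for KO mice, with both arrays of each on the same side of 1, and 1.26-fold in KO mice at 60 min. A_55_P2044413 had ratios between 0.905-fold and 1.11-fold in the 4 comparisons, and levels between 8.82 and 9.49. Its vehicle level was lower at 60 than at 30 min by 0.37 in WT and 0.36 in KO skin. Since A_55_P2160387 shares sequence with probes of many other genes, its level cannot be assigned to Cxcl11 alone. A_55_P2044413 has 30 of its 60 bases in runs shared, on either strand, with probes of 2 other gene names. Its level has the same limit, so neither probe settles what Cxcl11 itself did.

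Cxcr3, the receptor, was read by A_51_P319022 (NM_009910) at chrX:98926920-98926979 on the minus strand (mm9), and it was well above background on both arrays of every sample. The 4 vehicle samples had levels of 6.70 (WT, 30 min), 6.86 (KO, 30 min), 6.75 (WT, 60 min) and 6.86 (KO, 60 min). The PACAP samples had 6.78, 6.92, 6.75 and 6.89 in the same order. PACAP over vehicle came to 1.06-fold, 1.09-fold, 0.994-fold and 1.10-fold, so the largest was 1.10-fold and the one in WT mice at 60 min was the nearest to 1. In vehicle skin its level was 0.16 higher in KO than in WT at 30 min and 0.11 higher at 60 min on the log2 scale.

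The promoters of Cxcl9 and Cxcl10 were searched for the letters of motifs tied to interferon, NF-kappa B, AP-1 and cAMP signalling. The RefSeq promoter table (GRCm38.p6) matched 3 of the 4 genes. The 250 bases before the start are printed for the ligands that were called, chr5:92328080-92328329 for Cxcl9 and chr5:92348890-92349139 for Cxcl10, both on the minus strand and read 5′ to 3′ in the gene's direction. Capitals mark matches to the motifs searched on both strands, which were the ISRE core GAAANNGAA, the GAS motif TTCNNNGAA, the AP-1 site TGANTCA, the cAMP response element TGACGTCA and the kappa B motif in its 9- and 10-base forms.
Cxcl9 promoter: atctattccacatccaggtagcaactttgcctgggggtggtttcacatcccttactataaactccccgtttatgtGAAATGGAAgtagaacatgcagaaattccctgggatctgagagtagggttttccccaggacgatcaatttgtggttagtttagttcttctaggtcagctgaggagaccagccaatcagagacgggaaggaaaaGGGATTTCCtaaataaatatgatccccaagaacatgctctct
Cxcl10 promoter: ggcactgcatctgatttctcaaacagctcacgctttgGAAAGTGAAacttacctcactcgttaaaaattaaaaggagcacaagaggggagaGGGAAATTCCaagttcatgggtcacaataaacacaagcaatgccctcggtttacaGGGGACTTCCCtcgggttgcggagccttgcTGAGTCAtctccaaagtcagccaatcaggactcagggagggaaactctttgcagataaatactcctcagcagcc

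Cxcl9 held 1 ISRE core match, from 175 to 167 bases before the start, and 1 kappa B match from 42 to 34. Cxcl10 held 1 ISRE core match from 213 to 205, 1 AP-1 match from 74 to 68, and kappa B matches from 159 to 150 and, as a pair that overlaps by all but 1 base at each end, from 104 to 94. Neither window held the GAS letters or the cAMP response element, and the Cxcr3 window held none of the 5 motifs. Among all 32851 promoter windows of this length, 7.13% held the ISRE core, 7.02% the GAS motif, 6.75% the AP-1 site, 1.55% the cAMP response element and 11.9% a kappa B match. A match is a description of these letters and not a binding site.

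Part of the known interferon targets were called in the same comparison as Cxcl9. The list held 30 genes of interferon response, all on the array, and each gene was given by its brightest probe. Of the 30, 7 were called higher and 0 lower in WT mice at 60 min, beside 0.583% of all probes. Ratios above 1 numbered 24 of 30 there and 22 of 30 in KO mice at 60 min. In WT mice the median log2 ratio of the list was 0.37, and that of all probes 0. The 7 were the guanylate-binding proteins Gbp2 (2.93-fold), Gbp3 (2.43-fold) and Gbp4 (3.77-fold), the immunity-related GTPases Igtp (3.12-fold), Irgm2 (2.02-fold) and Iigp1 (2.54-fold), and Cd274, which encodes the checkpoint ligand PD-L1 (2.05-fold). Both families of GTPases act against intracellular microbes and respond mainly to interferon gamma. The value of Gbp4 rests mostly on 1 array (6.56-fold and 2.16-fold), its vehicle sample was well above background on 1 of 2 arrays, and it was 1.31-fold with normexp and loess. With normexp and loess 2 of the 30 were called, Gbp2 and Igtp. Irgm1, a regulator of the same family, was 1.99-fold at its brightest probe and not called. Gbp6 was 1.61-fold at its brightest probe, and its other probe, like that of Irgm1, was called (2.83-fold and 2.24-fold). The other Iigp1 probe was called as well (5.60-fold).

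The level of Igtp in WT skin at 60 min was 8.89 after vehicle and 10.39 after PACAP, and the other 6 samples lay between 8.59 and 8.84. Gbp2 had 8.39 and 9.77 there, and 8.24 to 8.85 elsewhere. In both genes WT skin 60 min after PACAP therefore stood above the other 7 samples. In KO mice none of the 30 genes was called at either time, beside 0.601% (30 min) and 0.142% (60 min) of all probes called higher. The list medians were -0.04 at 30 min and 0.20 at 60 min. At 60 min 3 KO means passed 2-fold without a call, those of Mx1 (2.54-fold; 3.65-fold and 1.77-fold on the arrays), Ciita (2.18-fold; 3.09-fold and 1.54-fold) and Ifit1 (2.12-fold; 4.50-fold and 1.00-fold), named after their values were seen. With normexp and loess they were 1.11-fold, 1.43-fold and 1.07-fold. The other Ciita probes were 0.991-fold and 1.55-fold in KO mice at 60 min. The count of KO calls at 60 min was 2 with the p filter dropped and 3 on the array with PACAP in Cy5. Without the p filter both arrays must still share a direction, which Ifit1 at 1.00-fold on 1 array did not meet. At 30 min Gbp4 alone was called in WT mice, at 2.46-fold (2.87-fold and 2.10-fold on the arrays), and it was 1.34-fold with normexp and loess. The count of 1 became 0 when probes had to be well above background in both channels.

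**Figure D3:**
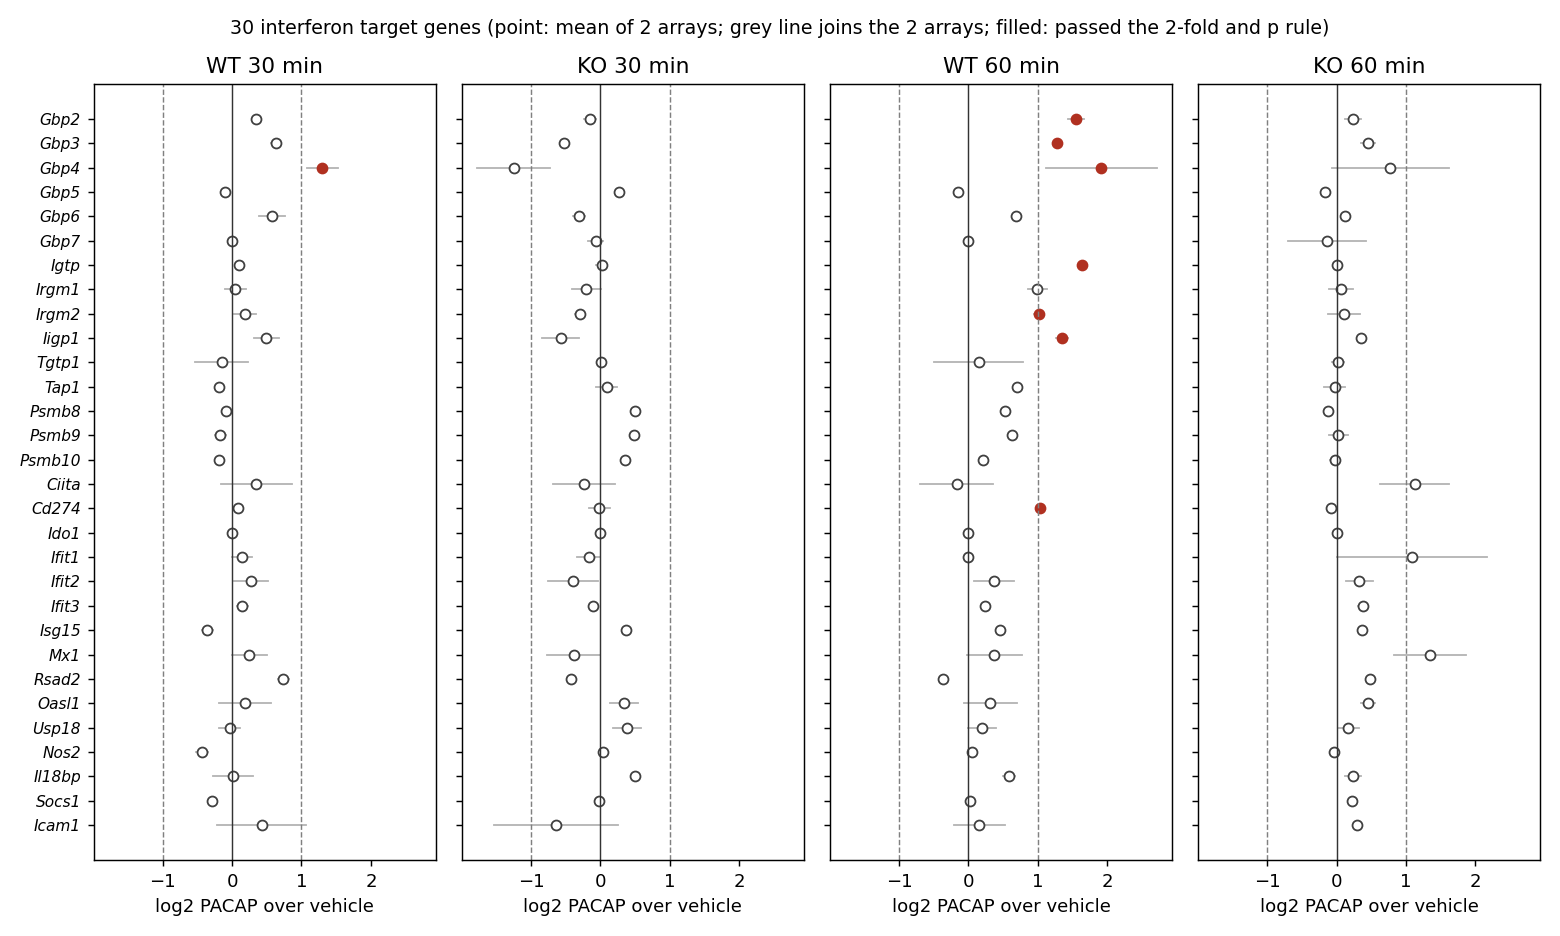
PACAP over vehicle (log2) of the 30 interferon target genes, 1 panel per comparison, with a point for the mean of 2 arrays, a grey line that joins the arrays, and filled points for called genes. Filled points number 1 in WT mice at 30 min (Gbp4), 7 in WT mice at 60 min and 0 in both KO panels.

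None of the 16 genes of the interferon signalling list, upstream of these targets, was called in any comparison. Over all probes no more than 0.601% were called higher and 0.15% lower, so 0 calls of 16 says little about these genes. In WT mice at 60 min 13 of the 16 were well above background on both arrays of both samples. The list medians were 0.12 (WT) and -0.14 (KO) at 30 min and 0.07 (WT) and 0.09 (KO) at 60 min on the log2 scale. Ifng, which encodes interferon gamma, had levels of 5.88 to 6.23 in the 8 samples and was well above background on both arrays in none. Its ratio in WT mice at 60 min was 3.01-fold (2.80-fold and 3.24-fold on the 2 arrays) but did not pass the p filter, and it was 1.21-fold with normexp and loess. Irf1, an early interferon-induced transcription factor, was 1.49-fold in WT at both times, and 0.920-fold (30 min) and 1.25-fold (60 min) in KO. The receptor chain Ifngr1 was 1.10-fold and 1.04-fold in WT and KO mice at 60 min.

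Among 10 genes of NF-kappa B and its cytokine inducers, 1 was called.  At 30 min 0.254% (WT) and 0.601% (KO) of all probes were called higher. Il1b, which encodes interleukin 1 beta, was called at 30 min in both genotypes, at 2.10-fold (WT) and 4.76-fold (KO). With normexp and loess these were 1.75-fold, below the 2-fold threshold, and 3.67-fold. Its ratios at 60 min were 0.574-fold for WT and 1.46-fold for KO, neither of them called. Tnf was 2.10-fold in WT mice at 30 min (2.86-fold and 1.54-fold on the arrays) without passing the p filter, and 0.922-fold in WT mice at 60 min. Of 8 partners of CXCR3, none was called in any comparison, which at such shares of all probes says little about them. Pf4, a platelet chemokine related to the ligands, was 0.979-fold in WT mice at 60 min, and Dpp4, the peptidase that trims the ligands at their amino end, 1.07-fold.

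Over all 4 comparisons the ratios can be tested across the whole array. A mean PACAP effect against 0 (limma, 30350 probes) called 0% of probes, with 678 at an unadjusted p below 0.05. PACAP effect in KO against WT also called 0% in limma, with 972 at an unadjusted p below 0.05. No gene of the pathway or marker lists passed in either of these fits. With time point as a covariate, the KO against WT fit called 17 probes (0.056%), among them probes of 2 list genes, which are named after their values were seen. The PACAP effect at the Gbp6 probe A_55_P2052385 was lower in KO than in WT mice, with a log2 difference of -2.02 ± 0.33 (SE; limma, adjusted p = 0.020). That of Fabp1, a liver fatty acid-binding protein gene, was higher in KO mice by 2.79 ± 0.47 (limma, adjusted p = 0.020). Without the covariate the adjusted p in limma was 0.84 for both. The brighter Gbp6 probe was not among the 17, with ratios of 1.49-fold (WT) and 0.809-fold (KO) at 30 min. At 60 min its ratios were 1.61-fold and 1.09-fold. The fit with the covariate rests on 4 values, and genotype and slide cannot be told apart in it.

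The genes whose levels were most alike Cxcl9 A_51_P461665 over the 8 RNA samples are given as a description, among 469 probes with an SD of at least 0.5. Vehicle and PACAP samples of a pair share arrays, and 1 sample, WT skin 60 min after PACAP, stands far from the rest. The other Cxcl9 probe had r = 0.98. The 10 gene names were Igtp (0.99), Tgtp2 (0.96), Ifi47 (0.87), Myl2 (0.86), Cxcl10 (0.84), Cyp1a1 (0.76), Lrrc30 (0.74), Gsta3 (0.72), Cyp2b10 (0.72) and Ibsp (0.71). Without that sample, r was 0.74 for the other Cxcl9 probe, 0.80 for Igtp, 0.64 for Cxcl10, 0.25 for Tgtp2 and 0.24 for Ifi47. It was higher without it for Lrrc30 (0.97), Myl2 (0.91), Gsta3 (0.91), Cyp2b10 (0.88), Ibsp (0.88) and Cyp1a1 (0.85). Tgtp2 and Ifi47, a T cell-specific GTPase and an interferon gamma-inducible GTPase, were 3.49-fold and 2.55-fold in WT mice at 60 min, and both were called. Myl2 encodes a muscle myosin light chain and was 1.41-fold there.

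None of the listed markers of the cells that carry CXCR3 was called. Of 22 T and natural killer cell genes, 0 were called in any comparison. Over all probes no more than 0.601% were called higher and 0.15% lower, so 0 calls in a list this short says little. In WT mice at 60 min 10 of the 22 were well above background on both arrays of both samples. The summed linear level of the 22 was 5853 to 6898 in the 4 vehicle samples and 5185 to 7559 in the 4 PACAP samples. For the WT pair at 60 min it was 6230 after vehicle and 6270 after PACAP. The T cell receptor component Cd3e was 1.06-fold there, while Cd8a and the natural killer receptor Ncr1 were well above background on no more than 1 array in any sample. Of 11 genes of monocytes, macrophages and dendritic cells, 0 were called, which at these shares says little as well. Adgre1 and Csf1r were 1.01-fold and 0.966-fold in WT mice at 60 min. In bulk skin fewer cells of a type and less RNA per cell cannot be told apart.

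Other tissue markers did move with the ligands in WT mice at 60 min. Of 22 genes of hair shaft and inner root sheath, 16 were called higher, beside 0.583% of all probes, and Krt31 was 2.52-fold. The median log2 ratio of the 22 was 1.97, and 1.30 with normexp and loess. Their summed linear level was 20485 after vehicle and 55926 after PACAP, and it ranged from 15799 to 71950 over the 4 vehicle samples and from 26990 to 55926 over the 4 PACAP samples. In KO mice at 30 min 13 of the 22 were called higher, beside 0.601% of all probes, while no chemokine probe was. Of 18 liver genes 10 were called lower in WT mice at 60 min, beside 0.109% of all probes. Alb, the serum albumin gene, was 0.318-fold. The list median was -1.62 on the log2 scale, and -0.51 with normexp and loess. Only 5 of the 18 were well above background on both arrays of both samples, so part of these ratios lie near background. The sum of the liver genes was 6058 after vehicle and 4744 after PACAP, with ranges of 4336 to 6058 (vehicle) and 4080 to 5439 (PACAP). The part of hair and liver transcripts in the chemokine ratios was not tested.

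Of the remaining lists, none had a called gene in WT mice at 60 min, beside 0.583% of all probes called higher and 0.109% lower. Those lists were 15 skeletal muscle genes, 10 neutrophil genes, 8 endothelial genes, 13 eccrine gland genes and 19 genes of epidermis and dermis. Ckm, the muscle creatine kinase, was 1.05-fold there, Krt5 1.08-fold, Krt14 1.20-fold and Aqp5 0.868-fold. At 30 min in WT mice, where Cxcl10 was called, 3 of 15 muscle genes and 4 of 22 hair genes were called higher and 1 hair gene lower. Of all probes, 0.254% were called higher and 0.0964% lower there.

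**Figure D4:**
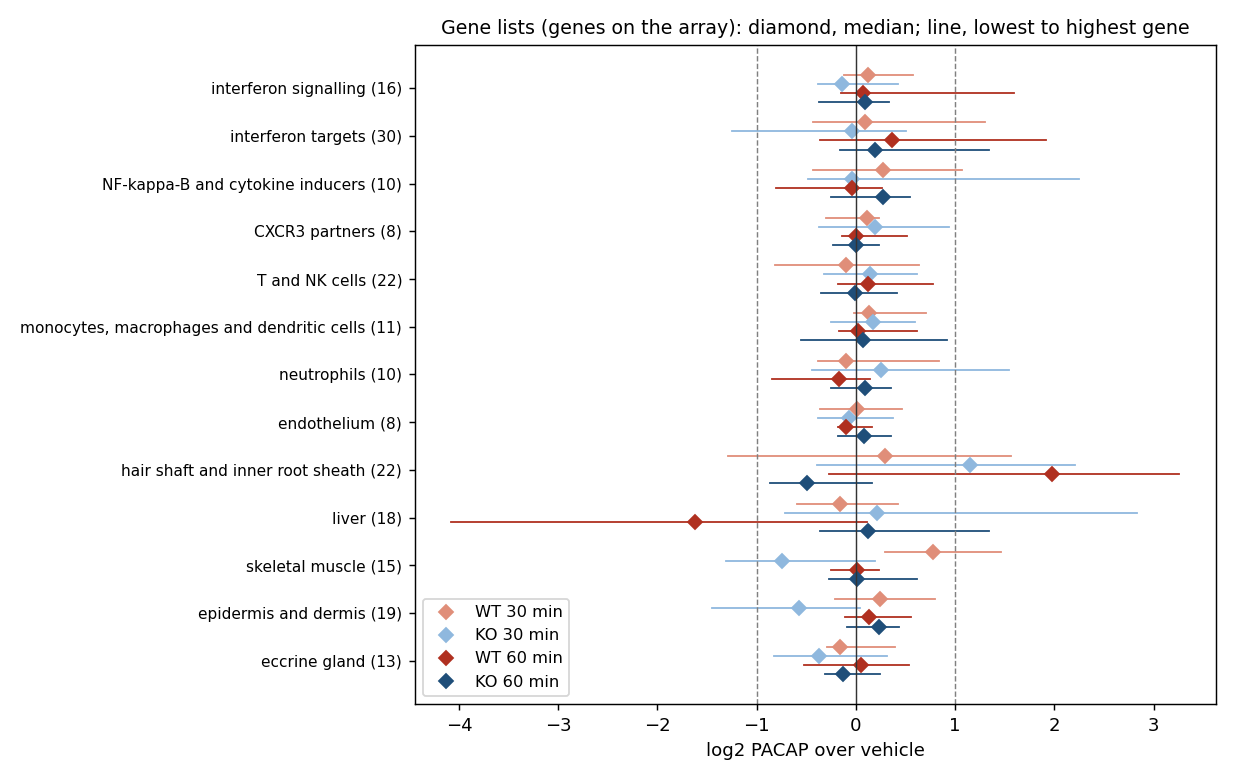
Median (diamond) and range (line) of the log2 ratio of PACAP over vehicle for each gene list in the 4 comparisons, with the number of genes on the array in brackets. In WT mice at 60 min the medians were 0.37 for interferon targets, 0.12 for T and natural killer cells, 1.97 for hair and -1.62 for liver. With normexp and loess, not drawn here, these were 0.21, 0.04, 1.30 and -0.51.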

How the data were processed

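The members and gene lists were chosen with earlier results of these data known. Forepaw skin RNA was hybridised by the authors to 2-colour Agilent arrays. Per the file headers, Feature Extraction 12.0.3.1 made the files (the labels name 11.0.1.1). The deposited log10 ratios of Cy5 over Cy3 come from background-subtracted signals that the authors' software normalized inside every array. Each spot has a deposited p-value, which is that software's and covers 1 array. The deposited intensity values were the mean and local background signals of each channel. Control and outlier spots were left out. Ratios were turned to PACAP over vehicle by the dye named in the labels, set on the log2 scale and averaged over both arrays of a pair. Levels were made with limma 3.58.1 in R 4.3.3 (normexp with an offset of 50, loess, Aquantile). Tests were limma's lmFit and eBayes with Benjamini-Hochberg adjustment over all probes that were tested, checked on simulated data. The ratio was averaged with numpy 2.4.6 and pandas 2.3.3. Named genes were all member probes, list genes with a called probe, fixed defining markers and the 10 most alike genes by Pearson r. A pathway gene of this rule is not reported here. Alternatives were normexp and loess ratios, median centring, the deposited series matrix ratios, outlier spots kept, single arrays, other thresholds and filters, covariates and samples left out. Probe coordinates are those of mm9 in the files, and promoters are from RefSeq (GRCm38.p6). No depth applies to arrays, and their number limits the precision.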

Additional observations from a re-analysis of the deposited data

Results flagged for a closer look

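The Cxcl11 probe A_55_P2160387 moved in opposite directions in both genotypes at 30 min. Its log2 ratio of PACAP over vehicle was 0.51 in WT mice (0.34 and 0.68 on the 2 arrays) and -0.70 in PAC1R KO mice (-0.63 and -0.78), a difference of 1.21. In KO mice the ratio at 60 min was 0.33, with 0.29 and 0.37 on the arrays, so that 30 min minus 60 min came to -1.03. Neither difference was tested, since each comparison is 1 pair of RNA samples. The other Cxcl11 probe, A_55_P2044413, had log2 ratios of 0.15, -0.14 and 0.13 in the same 3 comparisons, and its arrays disagreed in direction in KO mice at 30 min. In that KO comparison 13 of 22 hair genes were called higher and 4 of 15 skeletal muscle genes lower. In WT mice at 30 min 3 of the muscle genes were called higher. Of all probes, 0.601% were called higher and 0.107% lower in the KO comparison, and 0.254% higher in the WT one. The summed linear level of 19 epidermis and dermis genes was 619547 after vehicle and 399841 after PACAP in KO mice at 30 min, with 2 of them called lower, and that of 13 eccrine gland genes was 44360 and 29813, with 0 called. In WT mice at 30 min the sums were 512476 and 573611 for epidermis and dermis and 46388 and 44269 for eccrine glands. The part of these tissues in the probe's ratios was not tested.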

How the results depend on the processing

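The 3 called Cxcl9 and Cxcl10 ratios of WT mice at 60 min kept their direction in all 6 other ways of making the ratio, from 5.05- to 17.4-fold and 3.19- to 35.8-fold for Cxcl9 and 4.25- to 6.97-fold for Cxcl10. The count of 3 became 2 when probes had to be well above background in both channels. The 1 call at 30 min (Cxcl10) fell to 0 with normexp and loess or a 3-fold threshold, and ranged from 0 to 1 on single arrays. Calls of the 7 probes in KO mice were 0 in every setting run. Over all probes, counts of calls ran across settings from 18 to 167 (WT, 30 min), 155 to 272 (WT, 60 min), 134 to 267 (KO, 30 min) and 26 to 86 (KO, 60 min) for probes called higher, and from 21 to 55, 10 to 57, 7 to 167 and 18 to 71 in the same order for probes called lower. Counts on single arrays, where 1 array sufficed, were higher than those from both arrays, so the shares of all probes called depend on asking both arrays: for probes called higher, 293 to 550 (WT, 30 min, from 100), 374 to 559 (WT, 60 min, from 230), 435 to 723 (KO, 30 min, from 237) and 256 to 285 (KO, 60 min, from 56), and for probes called lower 319 to 320 (from 38), 120 to 463 (from 43), 446 to 474 (from 42) and 161 to 445 (from 59) in the same order. PACAP effect in KO against WT gave 17 calls with time point as covariate, and 0 to 170 calls with 1 comparison left out (170 without WT at 30 min, with 27 list genes among them, and 83 without WT at 60 min, with 3); the mean effect gave 0 to 1. Both vehicle fits gave 0 calls in every setting. In these fits, uncalled differences of member probes changed sign. Those of both Cxcl9 probes and of Cxcl10 A_55_P2016459 were near background in vehicle skin, so their sizes are listed but not read. One of them kept its sign but moved from 0.58 to 2.92 with Feature Extraction's signals, that of Cxcl9 A_51_P461665 at 60 against 30 min. With Feature Extraction's signals, KO against WT became 0.29 for Cxcl10 A_55_P2016459 and -0.035 for Cxcl11 A_55_P2160387, and 60 against 30 min became -0.72 for Cxcl9 A_55_P1977038 and -0.11 for Cxcl10 A_55_P2016459. Leaving out 1 vehicle sample moved KO against WT from -0.57 to 0.26 for Cxcl9 A_51_P461665, from -0.28 (without KO at 60 min) to 1.27 for Cxcl10 A_55_P2016462, from -0.32 to 0.049 for Cxcl11 A_55_P2044413 and from -0.12 to 0.21 for A_55_P2160387. It moved 60 against 30 min from -0.056 to 0.11 for Cxcr3, from -0.017 to 0.19 for Cxcl9 A_55_P1977038 and from -0.018 to 0.081 for Cxcl10 A_55_P2016459. The causes were not tested. No paired analysis was possible because the replicate numbers in the labels, which would form the pairs, mark the dye orientations of the same RNA pair and were averaged. This concerns pairing by replicate number alone: each ratio is itself a within-array comparison, and the fit with time point as covariate, which is blocked by time, is the 1 that gave the 17 calls.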
